A study of Mus musculus with 8 samples.

Results

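A set of 10 integrin subunit genes was followed through RNA sequencing of CCR6+ group 3 innate lymphoid cells (ILC3s) of the mouse large intestine: the alpha subunits Itga1, Itga2, Itga4, Itgae, Itgal and Itgav and the beta subunits Itgb1, Itgb2, Itgb3 and Itgb7. They were chosen by name, with earlier results of these data known, and all 10 have a row among the 27179 genes of the deposited count table. The cells were sorted as CD45-dim, CD90-high, CD127+ and CCR6+ and lacked CD3, CD5, NK1.1, gamma delta T cell receptor, CD11b, CD11c and B220. A single library was made from each of 8 individual C57BL/6 mice at steady state, so a difference between mice cannot be told apart from one between preparations. In the first group, 4 mice were Zbtb46f/f, in which both copies of the transcription factor gene Zbtb46 carry loxP sites and stay intact (Zbtb46-sufficient, labelled wild type, replicates 1 to 4). The other 4 also carried a Cre recombinase active in ILC3s that removes the floxed part (Zbtb46-deficient, labelled Zbtb46 KO, replicates 5 to 8). The Cre is also active in other lymphocytes, including developing T cells, so the deletion is not restricted to ILC3s. All 8 mice carried the floxed alleles, and no age is given for the mice.

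Integrins are cell surface receptors made of 1 alpha and 1 beta chain, and both chains must be produced for either to reach the surface in quantity. They bind adhesion molecules on other cells or proteins of the extracellular matrix, and signals from inside the cell switch them between low and high affinity. In gut lymphocytes, alpha 4 beta 7 binds the addressin MAdCAM-1 on intestinal vessels, alpha E beta 7 (CD103) binds E-cadherin on epithelium, and alpha L beta 2 (LFA-1) binds the ICAM proteins. Alpha 1 beta 1 and alpha 2 beta 1 bind collagen, and alpha v pairs with several beta chains to bind vitronectin, fibronectin and latent TGF-beta. The members can form 8 of these pairs among themselves: Itgb1 with Itga1, Itga2, Itga4 or Itgav, Itgb2 with Itgal, Itgb3 with Itgav, and Itgb7 with Itga4 or Itgae.

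Sequences upstream of a transcription start are shown for the genes of the 2 alpha 4 pairs. These pairs share 1 alpha chain, while the transcript levels of their beta chains differed in how even they were across libraries. Each sequence is the 250 bases before a RefSeq transcript start on GRCm38.p6, written 5′ to 3′ on the gene's own strand. The Itgb7 window precedes the start of a transcript but lies inside the gene's full RefSeq span, which begins further upstream. RefSeq gave such a window for 6 of the 10 members. Capitals mark matches on either strand to 3 short motifs. RUNX factors were searched by the letters TGTGGT. ETS factors were searched by GGAAG, and the factor Sp1 by GGGCGG. None of the capital stretches below belongs to more than 1 motif.
Itga4 (chr2:79255176-79255425, plus strand): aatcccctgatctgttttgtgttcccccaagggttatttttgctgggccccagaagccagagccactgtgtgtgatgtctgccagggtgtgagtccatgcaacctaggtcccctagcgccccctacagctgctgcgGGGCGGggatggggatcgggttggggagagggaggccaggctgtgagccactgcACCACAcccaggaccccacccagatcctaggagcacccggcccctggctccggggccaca
Itgb1 (chr8:128685404-128685653, plus strand): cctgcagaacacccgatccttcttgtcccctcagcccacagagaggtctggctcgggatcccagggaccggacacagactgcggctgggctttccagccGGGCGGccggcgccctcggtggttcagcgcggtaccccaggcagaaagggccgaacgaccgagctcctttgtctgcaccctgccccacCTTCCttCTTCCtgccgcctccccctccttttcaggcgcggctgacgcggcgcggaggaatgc
Itgb7 (chr15:102231936-102232185, minus strand): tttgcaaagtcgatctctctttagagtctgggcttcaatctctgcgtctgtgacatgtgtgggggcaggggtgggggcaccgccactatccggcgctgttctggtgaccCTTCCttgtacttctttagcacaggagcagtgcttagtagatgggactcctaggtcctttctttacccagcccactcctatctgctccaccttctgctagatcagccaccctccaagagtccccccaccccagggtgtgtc
The Itga4 window held 1 RUNX match and 1 Sp1 match, the Itgb1 window 2 ETS matches and 1 Sp1 match, and the Itgb7 window 1 ETS match. Among 32851 mouse promoter windows of the same length, the RUNX letters occurred in 14%, the ETS letters in 64.1% and the Sp1 letters in 32.7%. Of the Itgb7 window, 9 bases lie in an exon of the GENCODE M21 annotation. A match describes the letters only.

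Library totals ran from 25328231 to 33760743 counts. Values below are CPM, read counts relative to library size with TMM scaling between libraries, as mean ± SD over n = 4 libraries per group. Where a library had 0 counts, the limit this allows is 3 counts, or 0.0889 to 0.118 CPM depending on the library, for counting error alone. The ILC3 markers Il7r, Il23r, Il22, Kit, Thy1, Ccr6, Ahr, Tcf7 and Id2 were all present and summed to between 23048 and 35858 CPM in every library. Zbtb46 itself ranged from 8.02 to 88.9 CPM in the sufficient libraries and from 0.125 to 4.82 CPM in the deficient ones. The groups did not overlap, with a log2 fold of -4.31 (standard error 1.42) and an adjusted p of 0.885 in edgeR's quasi-likelihood test. With that test 0 of 8878 tested genes passed an adjusted p of 0.05, so percent called was 0%, while 364 had an unadjusted p under 0.05. DESeq2 called 240 higher and 134 lower, which was 3.26% of the 11478 genes to which it gave an adjusted p. Limma-voom with sample weights called 0 and had 775 at an unadjusted p under 0.05. A pair of libraries stood apart in an earlier analysis of these data, sufficient replicate 1 and deficient replicate 6, and values without them are given where they matter.

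Itgav was the most abundant integrin transcript of these cells, Itgal, Itga4, Itgb1, Itgb3 and Itgb7 had intermediate levels, and Itga1, Itga2 and Itgae were nearly absent. No member passed edgeR's test over all genes. Itgal and Itgb7 had higher values in every Zbtb46-deficient library than in any sufficient one, at 2.77 and 2.24 times the sufficient level in the fit. Itgb7 passed under DESeq2 only. The other tested members overlapped between the groups, with Itgav held most evenly and Itgb2 least.

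**Figure D1:**
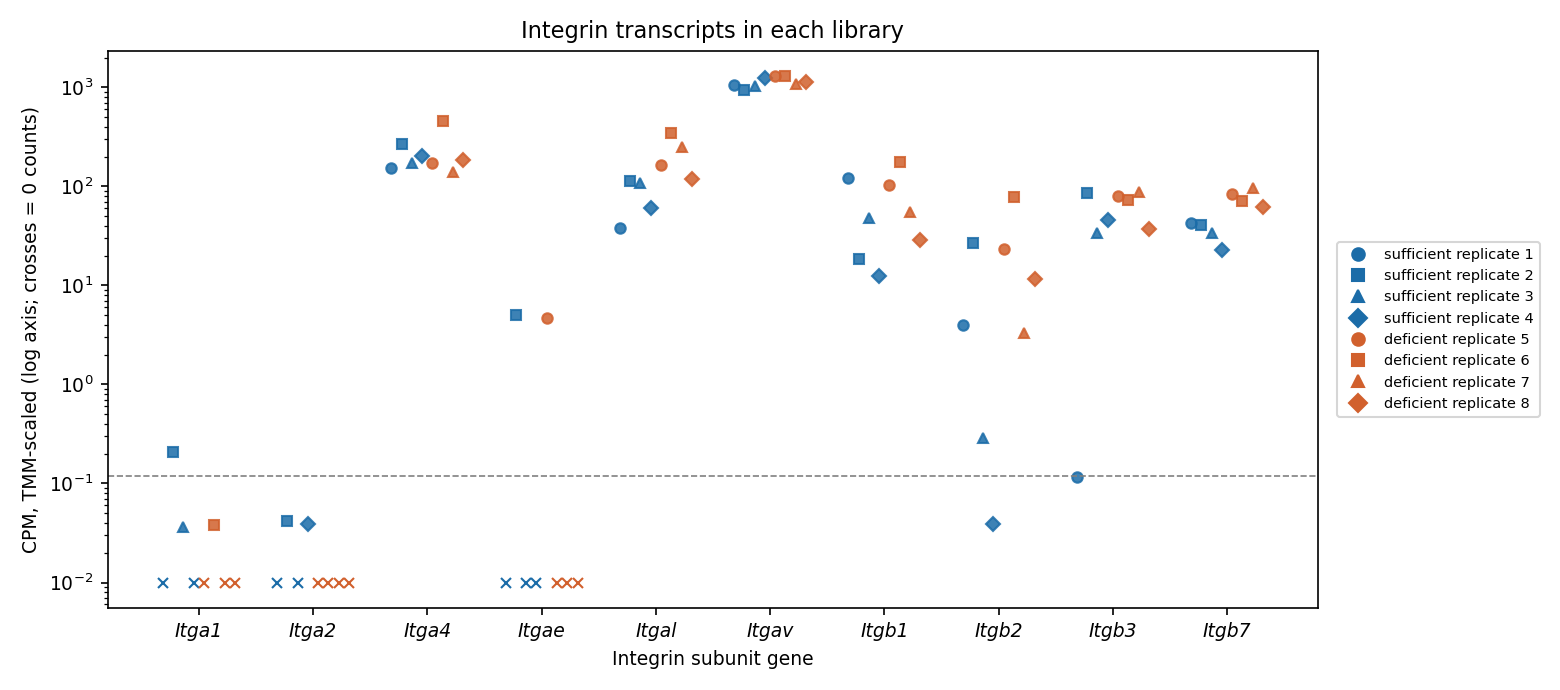
CPM of each integrin gene in each of the 8 libraries on a log axis, with sufficient libraries in blue and deficient libraries in orange. Crosses at the bottom mark 0 counts and the dashed line marks the level of 3 counts in the smallest library, 0.118 CPM. Itgav lies between 944 and 1301 CPM in all libraries, Itgal and Itgb7 separate by group, and Itga1, Itga2 and Itgae lie mostly at 0.

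Among the alpha chains, Itgav (Entrez ID 16410, chromosome 2, 83722303 to 83806917), the alpha v chain, was the most abundant. It was at 1059, 944, 1030.1 and 1241 CPM in sufficient replicates 1 to 4 and at 1301, 1298, 1074 and 1139 CPM in deficient replicates 5 to 8. The groups overlapped, and every library lay within a narrow band. Means were 1069 ± 125 and 1203 ± 115 CPM, a log2 fold of 0.17 (standard error 0.17, 95% interval -0.21 to 0.55, edgeR adjusted p 1.00). Its coefficient of variation was 11.7% in sufficient and 9.52% in deficient libraries, against 19.2% to 165% for the other 6 tested members.

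Itgal (Entrez ID 16408, chromosome 7, 127296139 to 127335137) encodes the alpha L chain of LFA-1. Sufficient replicates 1 to 4 had 37.6, 113, 107 and 61.1 CPM, and deficient replicates 5 to 8 had 163, 350.1, 252 and 119 CPM. All 4 deficient libraries lay above all 4 sufficient ones, the closest being deficient replicate 8 and sufficient replicate 2. Means were 79.9 ± 36.6 and 221 ± 102 CPM, with a log2 fold of 1.47 (standard error 0.46, 95% interval 0.44 to 2.49). The unadjusted edgeR p was 0.00955 and the adjusted p 0.793, so the difference did not pass over all genes. DESeq2 gave an adjusted p of 0.163. Without sufficient replicate 1 and deficient replicate 6 the log2 fold was 0.92, with an edgeR adjusted p of 0.854.

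Itga4 (Entrez ID 16401, chromosome 2, 79255426 to 79333114), the alpha 4 chain, had 152, 270.4, 171 and 203 CPM in sufficient replicates 1 to 4. In deficient replicates 5 to 8 it had 172, 454, 139 and 186 CPM. Deficient replicate 6 stood far above the other 7 libraries, which overlapped. Means were 199 ± 51.9 and 238 ± 145 CPM, with a log2 fold of 0.26 (standard error 0.40, edgeR adjusted p 1.00). The direction rested on that library, since without it the log2 fold was -0.26 and limma-voom, which weights libraries, gave -0.12. The span of Itga4 overlaps that of Cerkl, whose counts were at most 320 in any library against at least 3893 for Itga4.

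Itgae (Entrez ID 16407, chromosome 11, 73090505 to 73147449), the alpha E chain known as CD103, was detected in 2 libraries only. It had 121 counts (5.01 CPM) in sufficient replicate 2 and 166 counts (4.74 CPM) in deficient replicate 5, and 0 counts in the other 6. It fell below the expression filter, so no test was made. The same 2 libraries had the highest sums of 8 T cell markers, 144 and 132 CPM, against 57.9 to 102 CPM in the other sufficient and 29.2 to 76.3 CPM in the other deficient libraries. The T cell receptor gene Trac was also highest there, at 22.6 and 54.8 CPM. Cd3d was highest in the same libraries, at 15.4 and 15.8 CPM. Cd3g was not: it had 0 counts in sufficient replicate 2 and was highest in sufficient replicate 3, at 60.9 CPM. Cd4 had counts in all 8 libraries. It was highest in sufficient replicate 2, where its 106 CPM made up most of the sum of 144 CPM. Without Cd4, the sum of that library would lie below that of sufficient replicate 3. In deficient replicate 5, Cd4 was lowest of all libraries, at 6.73 CPM. Cd8a and Cd8b1 had 0 counts in all 8 libraries and Cd3e at most 0.165 CPM. The part of T cells in the Itgae reads was not tested. In bulk samples, fewer cells of a type and less RNA per cell cannot be told apart. Haspin, which lies within the span of Itgae, had at most 4 counts in any library.

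The collagen-binding chains were at the limit of detection. Itga1 (alpha 1, CD49a, Entrez ID 109700, chromosome 13, 114958079 to 115101964) had 5 counts in sufficient replicate 2, 1 count each in sufficient replicate 3 and deficient replicate 6, and 0 in the remaining 5 libraries. Itga2 (alpha 2, CD49b, Entrez ID 16398, chromosome 13, 114833081 to 114932100) had 1 count each in sufficient replicates 2 and 4 and 0 elsewhere. Neither gene was tested, and at these counts no difference between the groups was detectable. Itga1 and Itga2 are used as surface markers of ILC1 and NK cells. The 8 NK and ILC1 markers summed to 37.5 to 248 CPM in sufficient and 184 to 598 CPM in deficient libraries, with Prf1 and Klra8 at 0 counts throughout. Most of each deficient sum was Ncr1, with 76.7 ± 85.6 CPM in sufficient and 254 ± 141 CPM in deficient libraries and overlap between the groups. The other 2 tested markers were fitted lower, Klrb1c with 34.1 ± 10.8 and 30.1 ± 13.4 CPM and Gzmb with 18.9 ± 20.7 and 11.6 ± 16.0 CPM. Of the untested markers, Gzma had 59.4 CPM in deficient replicate 5 and at most 0.228 CPM elsewhere. Tbx21 had 11.3 CPM in deficient replicate 5, 3.64 CPM in sufficient replicate 2 and at most 0.438 CPM elsewhere. Eomes was at most 0.0571 CPM.

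Among the beta chains, Itgb7 (Entrez ID 16421, chromosome 15, 102215994 to 102233405), the partner of alpha 4 and alpha E in gut homing and retention, was the most even within groups. It had 42.3, 40.7, 33.6 and 22.8 CPM in sufficient replicates 1 to 4 and 82.9, 72.0, 96.5 and 61.4 CPM in deficient replicates 5 to 8. Every deficient library lay above every sufficient one. Means were 34.9 ± 8.88 and 78.2 ± 15.04 CPM, with a log2 fold of 1.17 (standard error 0.48, 95% interval 0.10 to 2.23). The unadjusted edgeR p was 0.0347 and the adjusted p 1.00. DESeq2 gave the log2 fold as 1.16 (standard error 0.33) with an adjusted p of 0.0168, and limma-voom gave 1.21 with an adjusted p of 0.468. The call therefore depended on the tool, while the fitted fold hardly did.

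Itgb1 (Entrez ID 16412, chromosome 8, 128685654 to 128733579), the beta 1 chain with the widest choice of partners, had 121, 18.7, 48.0 and 12.6 CPM in sufficient replicates 1 to 4. In deficient replicates 5 to 8 it had 104, 178, 55.3 and 28.5 CPM. Both groups spanned a wide range and overlapped. Means were 50.1 ± 49.8 and 91.6 ± 65.7 CPM, with a log2 fold of 0.87 (standard error 0.80, edgeR adjusted p 1.00). The log2 fold moved to 1.79 without sufficient replicate 1 and to 0.32 without deficient replicate 6, the libraries with the highest value of each group. Without both it was 1.23.

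Itgb2 (Entrez ID 16414, chromosome 10, 77530329 to 77565708) encodes the beta 2 chain shared by LFA-1 and the myeloid integrins. It had 4.03, 27.0, 0.288 and 0.0393 CPM in sufficient replicates 1 to 4, the last 2 from 8 counts and 1 count. Deficient replicates 5 to 8 had 23.5, 77.7, 3.32 and 11.6 CPM. No other tested member varied so widely, and the groups overlapped. Means were 7.83 ± 12.9 and 29.0 ± 33.5 CPM, with a log2 fold of 1.89 (standard error 1.76, edgeR adjusted p 1.00). The log2 fold was 4.32 without sufficient replicate 2 and 0.73 without deficient replicate 6. Without sufficient replicate 1 and deficient replicate 6 it was 0.51. Macrophage and neutrophil markers, 8 in all with Fcgr1 at 0 counts throughout, summed to 0.910 to 44.0 CPM in sufficient and to 335, 11.6, 732 and 5.29 CPM in deficient replicates 5 to 8. Most of the sums in deficient replicates 5 and 7 came from S100a8 (238 and 316 CPM) and S100a9 (94.1 and 359 CPM). Deficient replicate 7, with the largest of these sums, had the least Itgb2 of its group. Deficient replicate 5, with the next largest, had more Itgb2 than deficient replicates 7 and 8. Deficient replicate 6, with a low sum, had the most. The part of such cells in the Itgb2 reads was not tested.

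Itgb3 (Entrez ID 16416, chromosome 11, 104608000 to 104670476), the beta 3 chain that pairs with alpha v or with the platelet chain alpha IIb, had 0.117, 85.6, 34.2 and 46.1 CPM in sufficient replicates 1 to 4. In deficient replicates 5 to 8 it had 79.5, 73.4, 88.6 and 36.8 CPM. Sufficient replicate 1, with 3 counts, lay far below the other 7 libraries, which overlapped. Means were 41.5 ± 35.3 and 69.6 ± 22.7 CPM, with a log2 fold of 0.74 (standard error 1.14, edgeR adjusted p 1.00). Without sufficient replicate 1 the log2 fold was 0.33, and without that library and deficient replicate 6 it was 0.31. The 6 platelet and megakaryocyte markers summed to at most 9.08 CPM in sufficient and 13.9 CPM in deficient libraries. Of these, Ppbp, Gp9 and Gp1ba had 0 counts in all 8 libraries, Pf4 was at most 10.04 CPM and Itga2b at most 8.80 CPM.

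Of the 10 members, 7 passed the expression filter. Of those 7, 0 passed the adjusted threshold in edgeR, and the percent called over all genes was 0%. All 7 fitted folds were above 0, with a median log2 fold of 0.87, against 4516 of 8878 tested genes and a median of 0.02. That includes Itga4, whose direction turned as given above. Itgal and Itgb7 had an unadjusted edgeR p under 0.05, against 2.1% of all tested genes in that direction. The same 2 members were higher in the deficient group without overlap, against 2.26% of all tested genes (4.36% counting both directions). The members were chosen with earlier results of these data known, so these comparisons with all genes carry no test. Among the libraries, deficient replicate 6 had the highest value in 4 of the 7 tested members (Itga4, Itgal, Itgb1 and Itgb2). It also had the fewest genes with at least 1 count, 10668, and the highest level of the nuclear RNA Malat1, 89385 CPM.

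**Figure D2:**
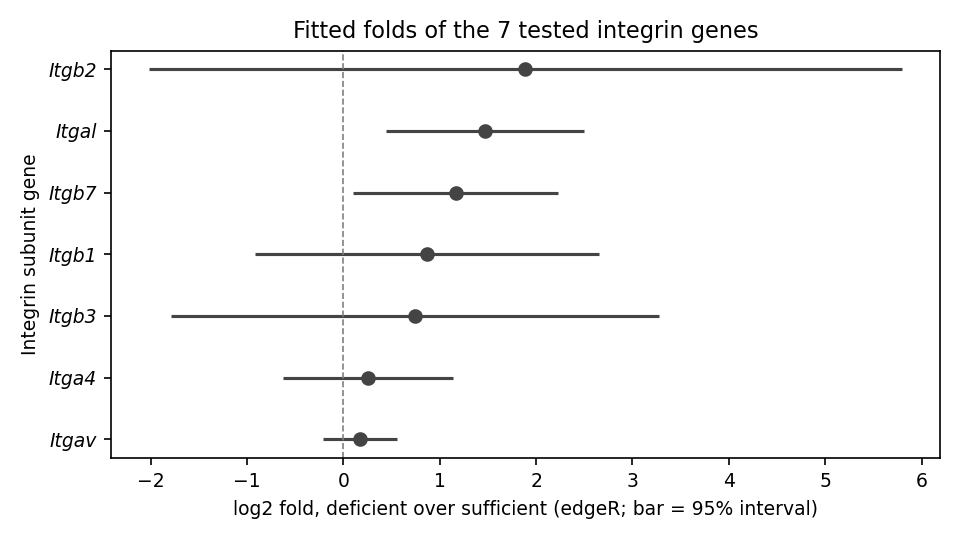
Log2 folds of the 7 tested integrin genes, deficient over sufficient, from edgeR's fit over all genes, with bars for the 95% interval of each gene alone. The intervals of Itgal (0.44 to 2.49) and Itgb7 (0.10 to 2.23) lie above 0, that of Itgav is the narrowest, and that of Itgb2 is the widest.

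To compare levels between genes, CPM was divided by the length of the longest GENCODE M21 protein-coding transcript. Over all 8 libraries, Itgav had 161 ± 18.7 CPM per kb and was the highest member in every library. Itgal had 28.8 ± 19.9, Itga4 22.4 ± 10.6, Itgb7 21.1 ± 9.63, Itgb1 18.6 ± 15.3, Itgb3 9.60 ± 5.41 and Itgb2 6.21 ± 8.78 CPM per kb. From Itgal down to Itgb2, neighbours in this order differed by less than the larger of their SDs, and Itgb1 and Itgb3 by more than the SD of Itgb3. The order of the means also differed between groups, with differences smaller than the larger SD: Itga4 (20.4 ± 5.32) was above Itgal (15.3 ± 7.01) in sufficient libraries, while in deficient ones Itgb7 (29.2 ± 5.60) was above Itga4 (24.3 ± 14.9 CPM per kb). With the median transcript length, which short models pull down, Itgav stayed first at 1651 CPM per kb, Itgb7 came second at 131, Itgb2 rose to 29.3 and Itga4, at 22.4, ranked below both. Itgae had 0.317 ± 0.587 CPM per kb, and Itga1 and Itga2 stayed under 0.02 CPM per kb in every library. Of the summed per-length level of the 6 alpha members, Itgav made up 61.9% to 86.8% per library. Itgal made up 8.18 ± 3.85% in sufficient and 17.4 ± 5.99% in deficient libraries. Of the summed level of the 4 beta members, Itgb7 made up 23.9% to 56.3% per library, while Itgb2 ranged from 0.0668% to 23.3%.

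Read as pairs by the longest transcript, the alpha chain exceeded the beta chain wherever the alpha was Itgav or Itgal. With the median transcript length this held in all 8 libraries for Itgav but in 5 of 8 for Itgal. By the longest transcript, Itgav exceeded Itgb1 and Itgb3 in all 8 libraries, by a log2 ratio of 4.07 ± 1.52 in sufficient and 3.14 ± 1.04 in deficient libraries for Itgb1. For Itgb3 the log2 ratio was 6.22 ± 4.32 and 3.90 ± 0.56, the first raised by the 3 counts of Itgb3 in sufficient replicate 1. Its remaining partners were scarce: Itgb5 was at most 12.0 CPM, Itgb6 at most 0.0856 CPM and Itgb8 at 0 counts in every library. Itgav was still 2.94 to 15.5 times the summed per-length level of those 5 beta chains. Itgal exceeded Itgb2 in all 8 libraries by log2 ratios from 1.25 to 9.20. They were highest in sufficient replicates 3 and 4, where Itgb2 had 8 counts and 1 count. A ratio of transcripts does not give the amount of the heterodimer.

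The alpha 4 pairs were nearer balance. The log2 ratio of Itga4 to Itgb7 was -0.02, 0.87, 0.48 and 1.29 for sufficient replicates 1 to 4. It was -0.81, 0.79, -1.33 and -0.27 for deficient replicates 5 to 8. The groups overlapped through sufficient replicates 1 and 3 and deficient replicate 6, and the mean moved from 0.65 ± 0.56 to -0.41 ± 0.91. The level of this ratio, too, depended on the transcript length used, while the difference between groups does not involve length. Itga4 against Itgb1 gave 1.15 ± 1.76 and 0.17 ± 0.84, with overlap. Together, Itgb1 and Itgb7 exceeded Itga4 per length in 6 of 8 libraries. The remaining pairs, Itgae with Itgb7 and Itga1 or Itga2 with Itgb1, had less alpha than beta transcript in all 8 libraries.

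**Figure D3:**
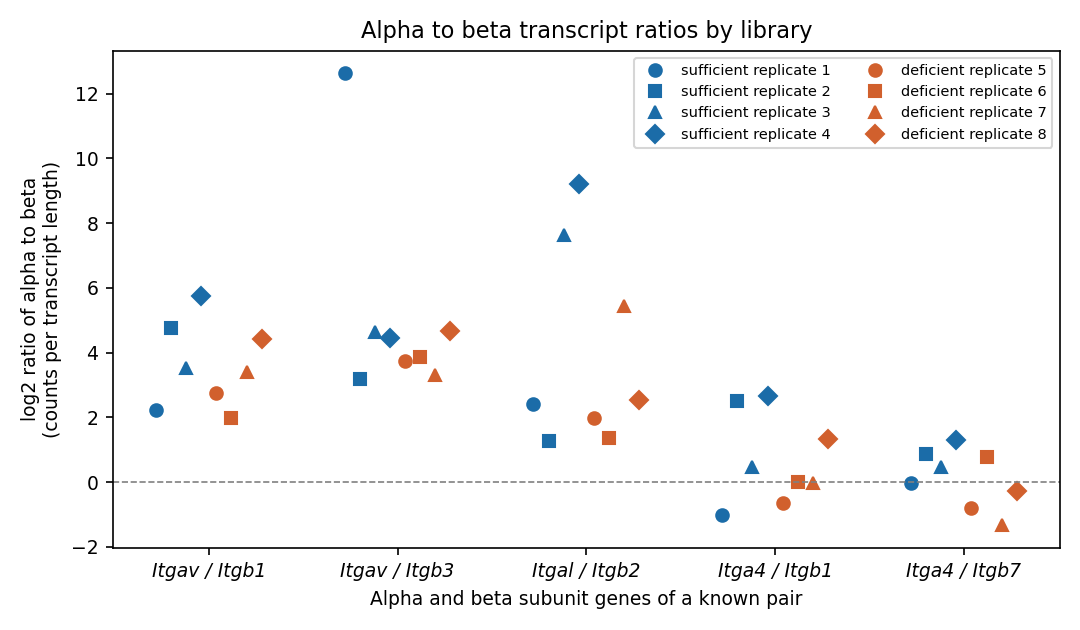
Log2 ratio of alpha to beta transcripts, each per length of its longest transcript, for the 5 pairs whose alpha chain was detected in all libraries, with sufficient libraries in blue and deficient libraries in orange. Points above the dashed line have more alpha than beta. Pairs with Itgav or Itgal lie above 0 in all 8 libraries, and pairs with Itga4 lie on both sides of it.

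Of 16 integrin subunit genes outside the members, 4 passed the filter and none reached a mean of 10 CPM. Of these 4, 0 passed the edgeR test, with 3 fitted folds above 0. The highest mean was 7.67 CPM for Itga5, the fibronectin-binding alpha 5 chain, with 5.58 ± 8.73 in sufficient and 9.75 ± 10.6 CPM in deficient libraries. Itga3, a laminin-binding chain, had 9.91 ± 15.9 and 2.97 ± 3.42 CPM. Itga11, a collagen-binding chain, had 2.88 to 4.16 CPM in all 8 libraries. Itgam and Itgax encode CD11b and CD11c, against which the cells had been sorted. Itgax was at most 0.188 CPM, and Itgam was at most 0.0827 CPM except in deficient replicate 7, the library richest in macrophage and neutrophil markers, which had 6.04 CPM. Deficient replicate 5, with the next largest sum of those markers, had 0 counts of Itgam.

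Integrins are switched on from inside the cell by talins and kindlins, which bind the beta chain's cytoplasmic tail downstream of the small GTPase RAP1, and held back by filamin, which binds the same tails. Of 33 genes of activation and adaptor proteins, 30 were tested. None passed the adjusted threshold in edgeR, with 18 fitted folds above 0 and 12 below and a median log2 fold of 0.28. An unadjusted p under 0.05 was found for 2 in the higher and 1 in the lower direction, where 2.1% and 2% of all tested genes lie. Flna, encoding filamin A, had 103, 118, 97.1 and 82.3 CPM in sufficient replicates 1 to 4 and 225, 345, 290.4 and 147 CPM in deficient replicates 5 to 8, without overlap. Its log2 fold was 1.33 (standard error 0.32, unadjusted p 0.00187, edgeR adjusted p 0.515). Cd47, a surface protein that associates with integrins, had 246 ± 45.6 and 378 ± 76.2 CPM, with overlap between the groups. Fermt2, encoding kindlin-2, went the other way with 132 ± 39.0 and 63.0 ± 16.7 CPM (log2 fold -1.07, standard error 0.38, edgeR adjusted p 0.983). Crkl, an adaptor of the CRK family, had 12.6 ± 16.9 and 1.96 ± 2.52 CPM. Fermt3, the kindlin of blood cells, had 12.2 ± 7.33 and 17.3 ± 14.0 CPM, and the talin gene Tln1 had 52.9 ± 11.9 and 96.1 ± 26.0 CPM.

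**Figure D4:**
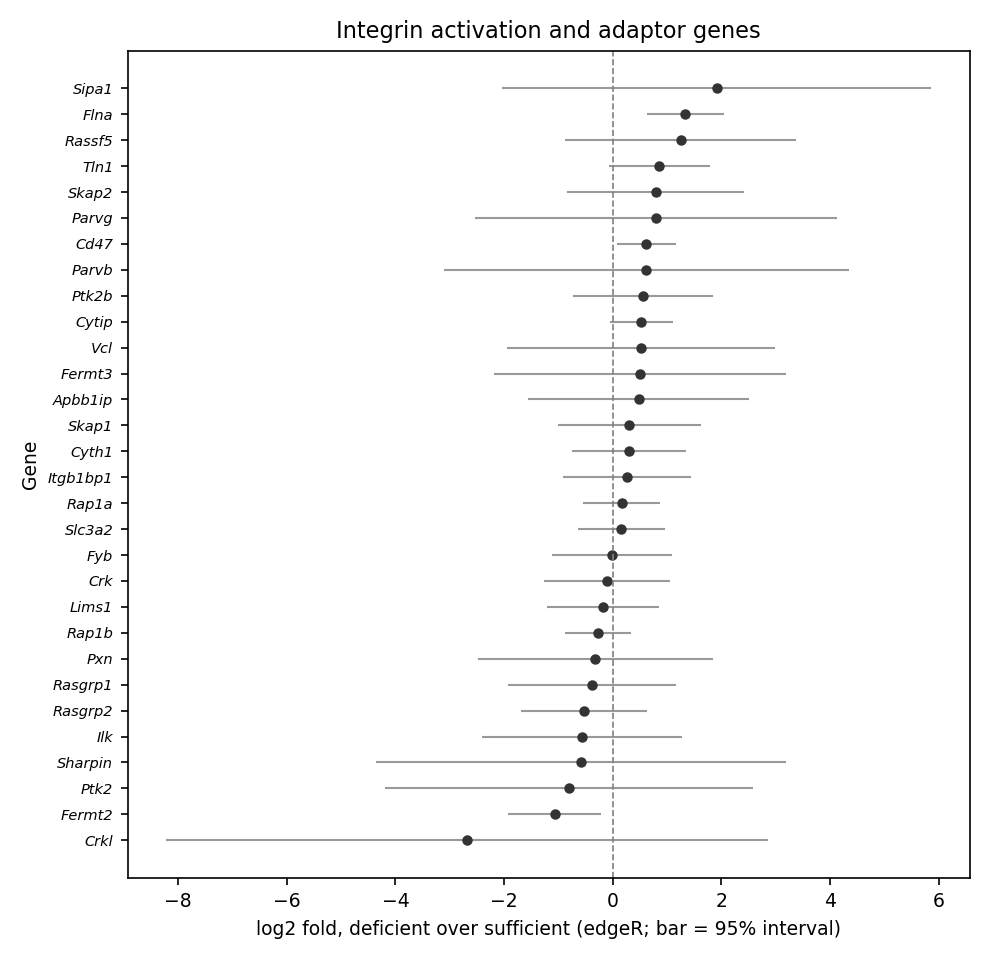
Log2 folds of the 30 tested integrin activation and adaptor genes, deficient over sufficient, from edgeR's fit over all genes, with bars for the 95% interval of each gene alone. The intervals of Flna and Cd47 lie above 0 and that of Fermt2 below 0, and all others include 0.

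Of 16 ligand genes, 6 were tested and 0 passed in edgeR, with 4 fitted folds above 0. The MAdCAM-1 gene Madcam1 and the E-cadherin gene Cdh1 were at most 0.0783 and 0.0414 CPM. Vcam1, a ligand of alpha 4 beta 1, had 1.20 ± 2.31 and 10.9 ± 17.6 CPM, with 37.2 CPM in deficient replicate 7. Col4a1, a basement membrane collagen gene, had 1.07 ± 1.51 and 4.54 ± 6.62 CPM and was also highest in that library, at 14.05 CPM. Stromal and endothelial markers, 8 in all with Cdh5 at 0 counts throughout, summed to 68.2 to 792 CPM in sufficient and 14.1 to 441 CPM in deficient libraries, where deficient replicate 7 was highest. Their part in the ligand values was not tested. Icam1, a ligand of LFA-1, had 34.1 ± 22.4 and 18.8 ± 18.3 CPM. Icam2, another LFA-1 ligand, was fitted higher, with 40.9 ± 39.7 and 76.7 ± 21.8 CPM and overlap between the groups. Tgfb1, whose latent product alpha v integrins bind, had 15.8 ± 5.52 and 8.80 ± 3.45 CPM.

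The genes whose profile over the 8 libraries lay closest to the 3 beta chains Itgb1, Itgb2 and Itgb7 were found by the root mean square difference of log2 CPM, each gene centred on its own mean, among 6837 genes that averaged 10 CPM or more. Closest to Itgb7 were Actb, which encodes cytoplasmic beta-actin, at 0.21, the ubiquitin ligase gene Zfp91 at 0.25 and the Src family kinase gene Blk at 0.27, where the median gene was at 1.18. Actb had 690.3, 676, 476 and 441 CPM in sufficient replicates 1 to 4 and 1109, 935, 1347 and 686 CPM in deficient replicates 5 to 8. Closest to Itgb1 were Zfand3 at 0.38, Gmeb2 at 0.53 and Gon4l at 0.55, with a median of 1.55. Closest to Itgb2 were Rab33b at 0.64, Ankdd1b at 0.71 and Tbcel at 0.73, with a median of 1.96. Of the 3 beta chains, Itgb7 had the smallest distance to its neighbours and also to the median gene. The measure is not scaled for how much a gene varies, so a gene that varies less tends to lie nearer to all others. The distances describe 8 libraries and carry no test.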

How the data were processed

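The authors deposited raw read counts under Entrez gene IDs, 1 column for each library, per the file headers. RNA was turned into libraries with the SMARTer Ultra Low Input kit, per the labels' protocols. CASAVA 1.8.2, STAR 2.3.0 and the build mm10 appear in the submitters' processing notes. How reads were assigned to genes, with which annotation and strand setting, is not stated in the sources used here. IDs were matched to symbols in the RefSeq table of GRCm38.p6 (25275 of 27179 rows). Sample titles gave the groups, and no replicate number occurs in both, so the mice are not paired.

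All genes were fitted with edgeR 4.0.16 (R 4.3.3, quasi-likelihood F test, TMM factors, filterByExpr by group), with Benjamini-Hochberg adjustment over all 8878 tested genes and a threshold of 0.05. Standard errors were derived from the F statistic, and 95% intervals from it and the fit's degrees of freedom. The step was tested on simulated counts. Pair ratios used counts plus 0.5, and profile distances log2 of CPM plus 2. Alternatives were RLE, upper-quartile and no scaling, DESeq2 1.42.0, limma-voom (limma 3.58.1), 3 other filters and libraries left out. Members and lists were chosen with earlier results of these data known. Named were all members, from each further list the 2 genes with the smallest p per direction, and 3 neighbours each for Itgb1, Itgb2 and Itgb7, the only beta chains for which the rule asked for them. Fermt3, Tln1, Icam2 and the sorted-against Itgam and Itgax were added after their values were seen. So were the ligands of alpha 4 beta 7 and alpha E beta 7 and single marker genes. A single ILC3 marker is not reported here.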

Additional observations from a re-analysis of the deposited data

Results flagged for a closer look

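Among 17 groups of 4 libraries examined for the members, 4 held a library whose gap to the nearest of the others took up most of the group's range, past the 95% critical value of Dixon's test. For normally distributed values chance gives about 1 in 20, which need not hold for CPM. The Itgae groups pass whatever the level of the detected library, since their other libraries all had 0 counts. Deficient replicate 6 had 454 CPM of Itga4 against 139 to 186 CPM in the rest of its group. Itgae was at 5.01 CPM in sufficient replicate 2 and at 4.74 CPM in deficient replicate 5, with 0 counts in the other libraries of both groups. Sufficient replicate 2 had 27.0 CPM of Itgb2 against 0.0393 to 4.03 CPM in the rest of its group. That library also had the most genes with at least 1 count, 14410. Its 8 epithelial markers summed to 1353 CPM, against 0.782 to 28.6 CPM in the other libraries. Deficient replicate 6 had 66.2 CPM of mast cell markers, all from Cpa3, against at most 3.23 CPM elsewhere. The part of such cells in the flagged values was not tested.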

How the results depend on the processing

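The counts of genes past the threshold were 0 higher and 0 lower in edgeR. DESeq2 gave 240 higher and 134 lower, and edgeR with no filter gave 1 higher and 1 lower. With each library left out in turn the counts ranged from 0 to 0 higher and from 0 to 2 lower, the 2 arising without deficient replicate 6. Under all other alternatives they were 0. Of the 7 tested members, 6 kept a positive fold under every alternative run. Itga4 reversed to -0.12 with limma-voom, to -0.26 without deficient replicate 6 and to -0.37 without that library and sufficient replicate 1, and with single libraries left out it ranged from -0.26 to 0.45. Itgb7 ranged from 0.94 to 1.46 and passed only with DESeq2 (adjusted p 0.0168, against 0.468 to 1.00 elsewhere). Itgal ranged from 0.92 to 1.68, with an adjusted p from 0.163 to 0.975. Itgb2 reached 7.43 without sufficient replicates 1 and 2, which leaves sufficient libraries of 8 counts and 1 count. With the median in place of the longest transcript length, the sufficient mean log2 ratio of Itga4 to Itgb7 reversed from 0.65 to -1.99, since short Itgb7 models give a median length of 430.5 against 2683 bases. Under that length the means for Itgal to Itgb2 were 3.09 in sufficient and 0.79 in deficient libraries. The cause of the other changes was not tested. No paired analysis was possible because the groups share no replicate number. Low counts of Itga1, Itga2 and Itgae limit what depth can show for those genes.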
